A study of Homo sapiens with 57 samples.

Results

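SUPT5H is the human gene that encodes Spt5, and 5 of its transcripts were followed here through 9 mRNA libraries. The members were taken by their Ensembl identifiers from tables that list 228715 transcripts. They are ENST00000432763 (3678 bases), ENST00000402194 (3698 bases), ENST00000598725 (3742 bases), ENST00000359191 (3770 bases) and ENST00000599117 (3902 bases). The lengths are those in the deposited tables, and the longest exceeds the shortest by 224 bases. Other SUPT5H transcripts that the tables may list were not added, so the sum given below is the sum of these 5 and may be less than the total of the gene.

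Spt5 travels with RNA polymerase II, together with its small partner Spt4. It helps to hold the polymerase paused a short way into a gene, and after phosphorylation by P-TEFb it stays with the polymerase as a factor of productive elongation. Phosphorylation sites lie in its linker regions and in its C-terminal repeats, of which CTR1 is the first set. SUPT5H is needed by dividing cells generally and is transcribed in most human tissues.

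All 9 libraries were made from HCT116, an established human colorectal carcinoma line. In these cells the labels give Spt5 as a fusion with an HA tag and dhfr, a degron that needs trimethoprim to keep the protein stable, and the libraries were made without trimethoprim. All cells also carried, in the vector pCW57, a fragment of Spt5 with an Avi tag (residues 1 to 820), which doxycycline at 2 ug/ml switched on over 24 hours. The medium held 200 ug/ml hygromycin, 1 mg/ml G418 and 15 ug/ml blasticidin. The 3 groups, each of 3 libraries, differ in the CTR1 form of the fragment, which the labels name WT, TA7 and TE7. Whether a line was 1 clone, and whether its replicates came from different cultures, is not stated in the labels. Each p-value below therefore reflects the scatter among these libraries alone, and that scatter may be technical. No library from uninduced cells, or from cells without the fragment, is among the 9. Of the 57 samples of the series, the 48 with nascent RNA or chromatin measurements are not analysed here.

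The SUPT5H values can therefore add up RNA of 2 origins. The degron acts on the protein and leaves the fusion gene in place. The induced copy can add a transcript that shares the sequence coding for residues 1 to 820, apart from any bases changed in its CTR1 form. How much RNA came from either origin was not measured. Short reads from that shared stretch cannot be traced to either origin unless they cover such bases, and the tables hold no read positions. Whether changed bases altered the assignment of reads in TA7 or TE7 was not tested. Whether a difference between groups lies in the endogenous or in the induced RNA therefore cannot be told apart.

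The 250 bases before the first of 2 RefSeq start sites of SUPT5H, which lie 62 bases from each other, are shown because they precede the endogenous RNA and not the induced copy. They are at chr19:39445332-39445581 on the plus strand of GRCh38.p14, as RefSeq gives them. The expression tables refer to another build, hg19, and no coordinate was carried over. Capitals mark the letters AAGATGGCG, known as a YY1 motif, and CTCGCGAG, the core of a motif known for BANP, both searched for after the sequence had been seen:
SUPT5H: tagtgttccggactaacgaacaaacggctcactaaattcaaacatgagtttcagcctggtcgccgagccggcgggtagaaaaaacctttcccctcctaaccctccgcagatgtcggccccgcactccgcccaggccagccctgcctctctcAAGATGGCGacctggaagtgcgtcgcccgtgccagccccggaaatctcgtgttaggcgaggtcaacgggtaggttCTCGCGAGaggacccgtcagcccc
Searched on both strands, AAGATGGCG was present in 0.652% and CTCGCGAG in 0.874% of 35116 RefSeq windows of the same length. The former lies 99 to 91 bases and the latter 24 to 17 bases before the start, and they do not overlap. The letters TATAAA, the core of a TATA box, are not in this window and were in 10.7% of all windows. The window holds 22 CG pairs, where the median window holds 11 and 74.2% of all windows hold 22 or fewer. No binding or methylation was measured here, and a match of letters is a description only.

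Some libraries stood apart. The first principal component of log2(CPM + 1) over 19820 transcripts held 49.5% of the variance and placed the TE7 libraries at 48.2 to 63.1. WT replicate 1, at -4.51, and TA7 replicate 1, at 2.4, lay nearer to TE7 than the other WT and TA7 libraries, which lay between -59 and -26.6. Results are therefore also given without these 2 libraries. WT replicate 1 also had the fewest transcripts with reads, 87229, against 95401 to 99993 in the other libraries. In bulk RNA, fewer cells with a transcript and less of it per cell cannot be told apart.

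The summed level of the 5 transcripts overlapped among the 3 groups. The authors' tables give TPM, which is reads per effective length scaled to the same total in each library, and TPM is used here for levels. The sum was 59.5, 66.7 and 80.9 TPM in the WT libraries of replicates 1, 2 and 3. It was 69.7, 85.9 and 85.1 TPM in TA7, and 82.3, 71.4 and 83.8 TPM in TE7. WT replicate 1 was the lowest of the 9 and TA7 replicate 2 the highest, and every pair of groups overlapped. The means were 69.0 ± 10.9 TPM in WT, 80.2 ± 9.14 in TA7 and 79.2 ± 6.78 in TE7 (SD, n = 3). In this order of levels TA7 and TE7 differed by 1.08 TPM, less than the SD of either group. TA7 lay 11.2 TPM and TE7 10.2 TPM above WT, differences about as large as the SD within WT. Two-sided exact permutation tests, 3 libraries against 3, gave p = 0.2 for TE7 vs WT, p = 0.2 for TA7 vs WT and p = 0.7 for TE7 vs TA7. Adjusted over these 3 comparisons by Benjamini-Hochberg they were 0.3, 0.3 and 0.7. The smallest p this design allows is 0.1.

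**Figure D1:**
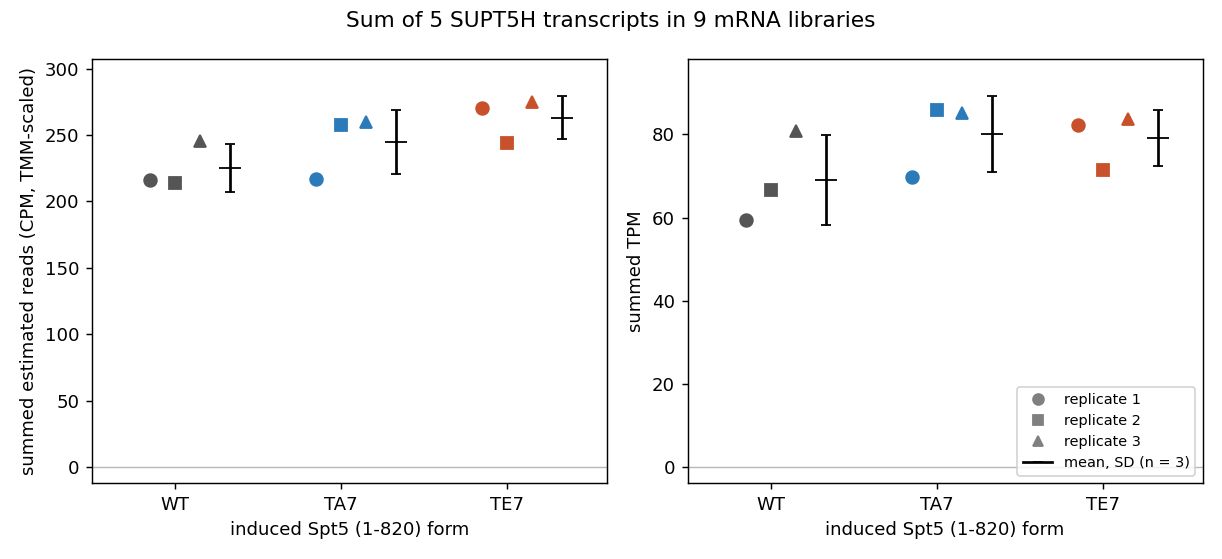
The sum of the 5 SUPT5H transcripts in each library, as CPM scaled with TMM factors (left) and as TPM (right), against the induced form, with the mean and SD of 3 libraries beside the points. On both scales the groups overlap, and WT has the lowest mean.

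Counts were compared with edgeR's quasi-likelihood test, for which the 5 rows were replaced by their sum in the table of all transcripts. Levels on this scale are CPM, reads relative to library size after scaling with TMM factors. The sum was 215.9, 214.0 and 245.7 CPM in WT, 216.6, 257.5 and 259.5 CPM in TA7, and 270.0, 244.3 and 275.0 CPM in TE7. TE7 replicate 2 was just below WT replicate 3, and TA7 replicate 1 lay among the WT libraries. The sum was 1.17 times as high in TE7 as in WT, a log2 difference of 0.22 with a standard error of 0.09. Its 95% interval ran from 1.01-fold to 1.35-fold, and it did not pass the threshold of 0.05 once all 78475 rows were taken into account (edgeR, Benjamini-Hochberg adjusted p = 0.177). TA7 was 1.09 times WT, with an interval of 0.937 to 1.26 and edgeR adjusted p = 0.904. TE7 was 1.08 times TA7, with an interval of 0.929 to 1.25 and edgeR adjusted p = 0.621. Without WT replicate 1 and TA7 replicate 1 the log2 differences in the sum were 0.20 for TE7 vs WT, 0.18 for TA7 vs WT and 0.02 for TE7 vs TA7. Their edgeR adjusted p-values were 0.173, 0.612 and 0.935. The sign of the TE7 minus TA7 difference depended on the scale, being positive in CPM and negative in TPM, and on both scales the groups overlapped.

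The sum rested on 12925 to 23997 estimated reads per library, for which counting alone gives an error of 0.646% to 0.88%. The CPM values varied by 7.9% in WT, 9.91% in TA7 and 6.28% in TE7 (SD as a percentage of the mean, n = 3). The spread between libraries was thus much wider than the counting error.

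Single transcripts were unequal in level, and the order was the same in all 9 libraries for the leading 3. ENST00000432763 held 64.2% to 79.1% of the estimated reads of the 5 transcripts in a library. ENST00000598725 held 14.3% to 28.5%, and ENST00000359191 held 5.39% to 8.44%. ENST00000599117 and ENST00000402194 held the rest. By TPM, ENST00000432763 ranked between 1700 and 2511 among all listed transcripts. The 5 sequences are nearly equal in length, and the quantification divides by estimate the reads they share. A read moved among the 5 therefore changes single values and not the sum. A read shared with other listed transcripts could move into or out of the sum, and this was not tested.

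Of the 5 members, 4 passed the filter on low counts and were tested, and 0 of them passed the threshold in any of the 3 comparisons. Over all 78478 transcripts tested, 9.4% were called in TE7 vs WT, 0.0612% in TA7 vs WT and 3.07% in TE7 vs TA7 by edgeR with an adjusted p under 0.05. Higher and lower calls made up 4.59% and 4.81% in TE7 vs WT, 0.0408% and 0.0204% in TA7 vs WT, and 1.29% and 1.78% in TE7 vs TA7. By CPM, groups did not overlap for 32.9% of transcripts in TE7 vs WT (16.8% higher, 16.1% lower), 14.1% in TA7 vs WT (7.48% higher, 6.61% lower) and 31.5% in TE7 vs TA7 (15.8% higher, 15.6% lower). Of the 4 members tested, groups did not overlap in CPM for ENST00000432763 in TE7 vs WT and for ENST00000598725 in TE7 vs WT and in TE7 vs TA7. At an unadjusted edgeR p under 0.05, ENST00000432763 passed in TE7 vs WT and in TE7 vs TA7, and ENST00000598725 in TE7 vs TA7. At that unadjusted threshold edgeR passed 25.3% of all transcripts in TE7 vs WT, 7.73% in TA7 vs WT and 19.3% in TE7 vs TA7. DESeq2, run as an alternative, called ENST00000432763 in TE7 vs WT and ENST00000598725 in TE7 vs TA7. Of the transcripts to which it gave an adjusted p, DESeq2 called 20.5% in TE7 vs WT, 2.85% in TA7 vs WT and 15% in TE7 vs TA7.

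ENST00000432763, the leading transcript, had its highest values in TE7. It was at 41.5, 48.3 and 58.7 TPM in WT, 50.0, 55.6 and 62.6 TPM in TA7, and 65.4, 53.8 and 65.9 TPM in TE7. In CPM these were 150.0, 154.0 and 177.1 in WT, 154.6, 165.4 and 189.6 in TA7, and 213.6, 183.1 and 215.1 in TE7. The TE7 and WT libraries did not overlap in CPM but did in TPM, where TE7 replicate 2 fell below WT replicate 3. The fitted level in TE7 was 1.27 times that in WT (95% interval 1.08 to 1.5), a log2 difference of 0.35 with a standard error of 0.10. Its edgeR adjusted p was 0.081, while DESeq2 gave a log2 difference of 0.345 and an adjusted p of 0.0128. Over all alternatives the adjusted p ran from that value to 0.208. Without WT replicate 1 and TA7 replicate 1 the TE7 minus WT log2 difference was 0.30, with edgeR adjusted p = 0.14. TE7 was 1.2 times TA7 (interval 1.02 to 1.42, edgeR adjusted p = 0.223), and TA7 was 1.06 times WT (interval 0.896 to 1.25, edgeR adjusted p = 1).

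ENST00000598725, the second in level, had its lowest values in TE7 and its highest in TA7. It was at 14.4, 13.6 and 14.5 TPM in WT, 16.0, 24.2 and 16.5 TPM in TA7, and 11.9, 12.4 and 11.9 TPM in TE7. In TPM the 3 groups did not overlap, and TA7 replicate 2 stood well above all other libraries. How many of all transcripts separate the 3 groups in TPM was not computed. In CPM it was 47.2 ± 5.07 in WT, 58.2 ± 13.2 in TA7 and 40.7 ± 2.07 in TE7 (SD, n = 3), and WT and TA7 overlapped. TE7 lay below both on either scale. The fitted level in TE7 was 0.699 times that in TA7 (95% interval 0.546 to 0.895), a log2 difference of -0.52 with a standard error of 0.15. Its edgeR adjusted p was 0.12, DESeq2 gave an adjusted p of 0.0205, and over all alternatives it ran from that value to 0.288. Without TA7 replicate 2 the log2 difference was -0.31, with edgeR adjusted p = 0.253, and without WT replicate 1 and TA7 replicate 1 it was -0.62, with edgeR adjusted p = 0.0833. TE7 was 0.862 times WT (interval 0.674 to 1.1, edgeR adjusted p = 0.451), and TA7 was 1.23 times WT (interval 0.963 to 1.58, edgeR adjusted p = 0.717). Without TA7 replicate 2 the TA7 minus WT log2 difference was 0.11, and without WT replicate 1 and TA7 replicate 1 it was 0.50.

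**Figure D2:**
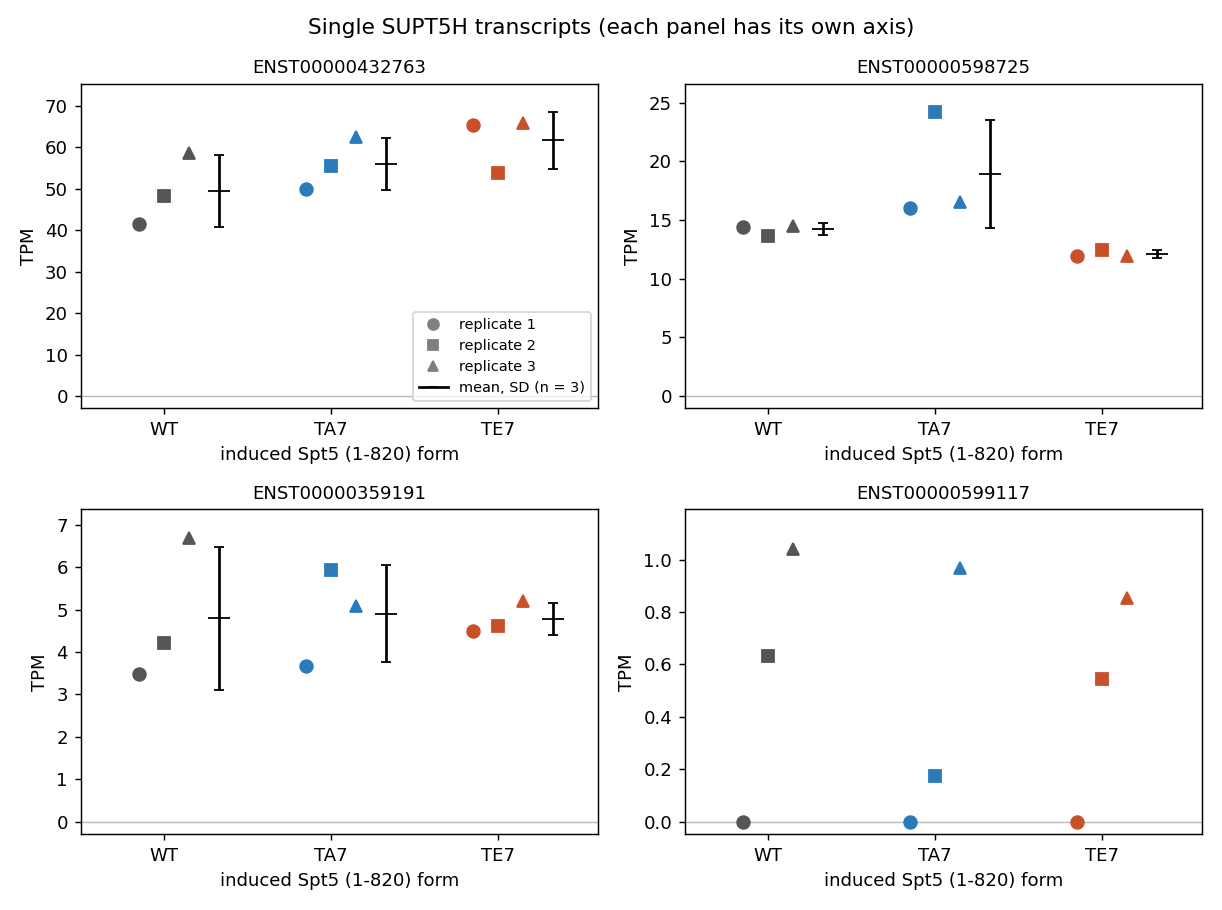
TPM of the 4 SUPT5H transcripts that passed the filter on low counts, in each library, against the induced form, with the mean and SD of 3 libraries beside the points of the 3 transcripts that have reads in all 9 libraries, and each panel on its own axis. ENST00000598725 has its lowest 3 values in TE7, and ENST00000599117 is listed at 0 in replicate 1 of every group.

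ENST00000359191 did not separate the groups on either scale. It was at 3.47, 4.22 and 6.69 TPM in WT, 3.68, 5.93 and 5.08 TPM in TA7, and 4.5, 4.6 and 5.2 TPM in TE7. The WT libraries alone spanned the whole range. The fitted ratios were 1.03 for TE7 to WT (95% interval 0.722 to 1.46), 0.963 for TA7 to WT (0.677 to 1.37) and 1.07 for TE7 to TA7 (0.75 to 1.51), with edgeR adjusted p of 0.948, 1 and 0.895. These intervals are wider than those of the sum and hold ratios on both sides of 1.

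ENST00000599117, the longest member, was listed at 0 in replicate 1 of WT, TA7 and TE7. In replicates 2 and 3 it had 140 and 234 estimated reads in WT, 52 and 219 in TA7, and 138 and 218 in TE7. Its zeros thus fell in the same replicate number of every form. The labels do not say what a replicate number stands for. Over 19820 transcripts of at least 5 CPM, deviations from the group mean were correlated between libraries of different groups. The correlation exceeded 0.1 in 3 of 9 same-numbered pairs. It ran from -0.049 to 0.236 in same-numbered pairs and from -0.252 to 0.114 in the others. Whether the numbers mark a batch was not tested. The edgeR adjusted p of this transcript was 0.981, 1 and 0.959 for TE7 vs WT, TA7 vs WT and TE7 vs TA7. With a value of 0 in each group the interval was wide, from 0.0249-fold to 32.5-fold for TE7 to WT. A 0 in an estimate of this kind does not show that the transcript was absent, since its reads can be assigned to the other members.

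ENST00000402194 had reads in 1 library only. It was listed at 117 estimated reads, or 0.528 TPM, in TE7 replicate 1 and at 0 in the other 8 libraries. It did not pass the filter on low counts and was not tested with the others. In the edgeR fit without a filter its adjusted p was 0.4 for TE7 vs WT.

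In TE7 the shares of both leading transcripts lay outside the range of the other libraries. How often shares within other genes do so was not computed. By CPM, a different measure, 32.9% of all transcripts tested separated TE7 from WT and 31.5% separated TE7 from TA7. These percentages are for levels of single transcripts in a pair of groups and give no rate for shares within a gene. ENST00000432763 held 69.5%, 72.0% and 72.1% of the estimated reads of the 5 transcripts in WT, 71.4%, 64.2% and 73.1% in TA7, and 79.1%, 75.0% and 78.2% in TE7. All TE7 libraries lay above all others, while WT and TA7 overlapped. ENST00000598725 held 24.6%, 20.6% and 18.1% in WT, 23.2%, 28.5% and 19.6% in TA7, and 14.7%, 17.7% and 14.3% in TE7. Here all TE7 libraries lay below all others, with WT replicate 3 the nearest. ENST00000359191 held 6.95% ± 1.32 in WT, 6.17% ± 0.826 in TA7 and 6.17% ± 0.522 in TE7 (SD, n = 3), and its groups overlapped.

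Between TE7 and WT the share of ENST00000432763 differed by 6.26 percentage points and that of ENST00000598725 by -5.55 points. Between TE7 and TA7 the differences were 7.87 and -8.24 points. Each of these 4 had an exact two-sided permutation p = 0.1 (n = 3 per group), the smallest possible. Adjusted by Benjamini-Hochberg over the 15 tests of shares, of 5 transcripts in 3 comparisons, each became 0.375. With 0.1 as the smallest p, none of these tests could have passed 0.05. Shares within a gene are not independent, and what one transcript gains the others lose. Between TA7 and WT the differences were -1.6 and 2.69 points, with exact permutation p = 0.8 and p = 0.5 (n = 3 per group), within the SD of TA7. Without TA7 replicate 2 the difference for ENST00000432763 turned to 1.06 points and that for ENST00000598725 fell to 0.332 points.

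**Figure D3:**
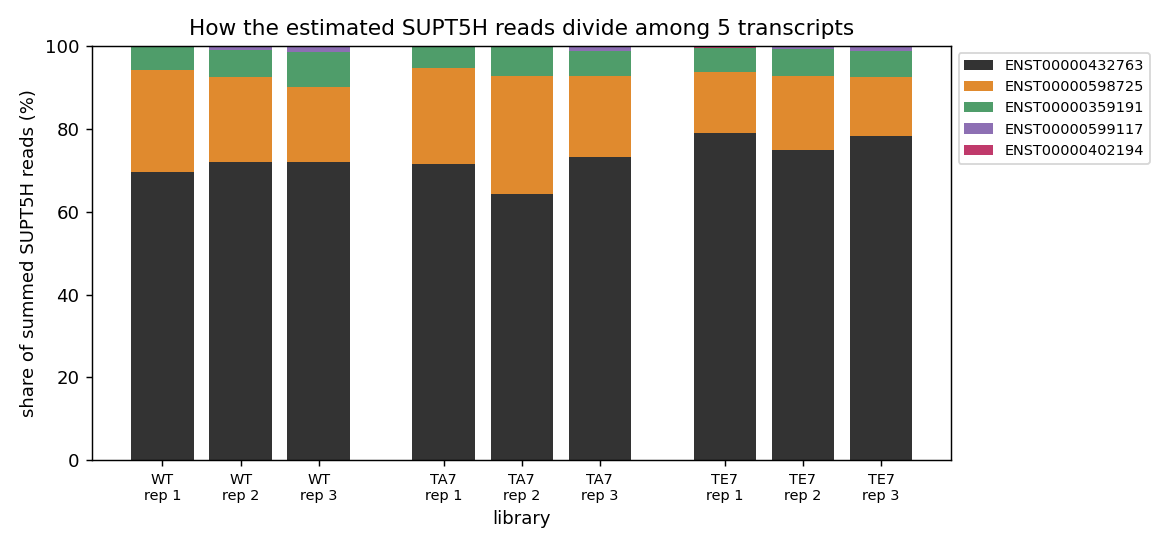
Share of the estimated reads of the 5 SUPT5H transcripts assigned to each, as stacked bars that add up to 100% in each of the 9 libraries. ENST00000432763 takes 75.0% or more in the 3 TE7 libraries and 73.1% or less in the other 6.

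As a ratio of TPM, ENST00000432763 was 2.88, 3.56 and 4.05 times ENST00000598725 in WT, 3.13, 2.29 and 3.79 times in TA7, and 5.49, 4.33 and 5.56 times in TE7. The lowest TE7 library, replicate 2, was only a little above the highest WT library, replicate 3.

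One property of the libraries also set TE7 apart. The effective length of a transcript is the length by which the quantification divides its reads, estimated anew for each library. For all 5 members it exceeded the length itself, so it was not a plain count of positions that could give a read. For ENST00000432763 it was 103.3% to 103.9% of the length in WT and 102.1% to 103.1% in TA7. In TE7 it was 100.7% to 101.4%, the lowest 3 of the 9 libraries. The TA7 libraries lay below the WT libraries in this measure for ENST00000432763. For ENST00000598725 the ranges in WT, TA7 and TE7 were 103.3% to 104.0%, 102.1% to 103.3% and 100.7% to 101.5%, so TA7 and WT met. The 2 transcripts moved almost alike in this measure. Shares taken from TPM, which divides by effective length, differed by 6.21 and -5.5 points for TE7 minus WT. They rest on the same assignment of reads and had to lie close to the shares of reads. They cannot show whether the property altered that assignment. The part of this property, and of WT replicate 1 and TA7 replicate 1, in the estimated shares was not tested.

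**Figure D4:**
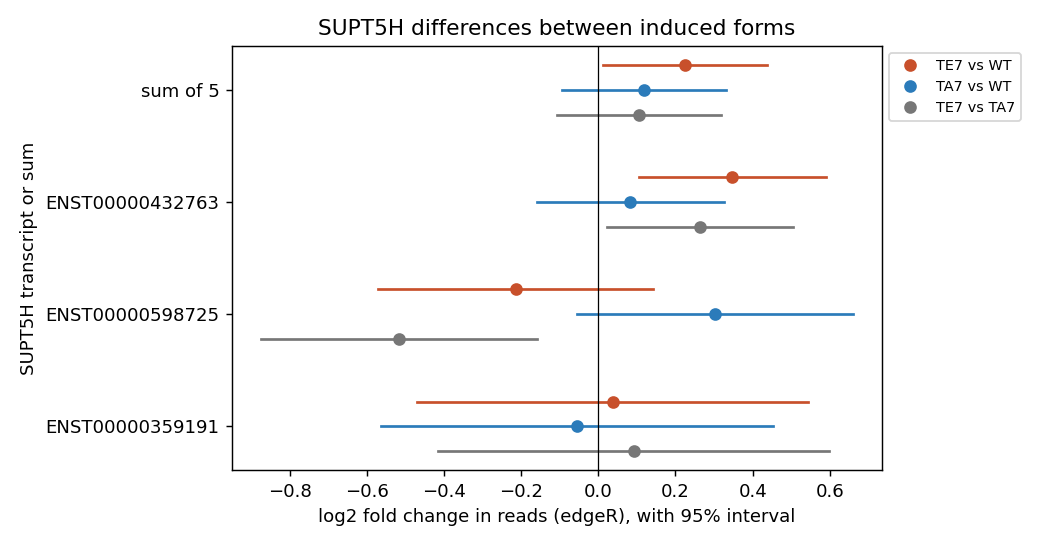
Log2 fold changes in reads from edgeR, as points with 95% intervals, for the sum of the 5 SUPT5H transcripts and for the 3 most abundant, in each comparison. The intervals that leave out 0 are those of the sum and of ENST00000432763 in TE7 vs WT, and of ENST00000432763 and ENST00000598725 in TE7 vs TA7, and none of these 4 passed after adjustment over all transcripts.

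The transcripts whose levels followed the SUPT5H sum most closely were sought among 19817 others of at least 5 CPM. ENST00000267116 had a Pearson correlation of 0.95 with the sum in log2(CPM + 1) over the 9 libraries, and ENST00000488433 one of 0.947. ENST00000267116 had means of 112 CPM in WT, 124 in TA7 and 131 in TE7 (n = 3), and ENST00000488433 had 21.3, 22.8 and 24.2. In all 20 transcripts reached 0.9, while the median over the 19817 was 0.015. The 9 points share their depth, their library preparation and their 3 groups, and the 2 were picked as the highest of all candidates, so these are a description. The gene tables used here pair neither identifier with a symbol. For the same reason the partners of Spt5 in pausing and elongation, and markers of the HCT116 line, are not analysed here.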

How the data were processed

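Messenger RNA of 9 HCT116 libraries was analysed, 3 for each induced form. Per the labels' protocols, Trizol RNA (1 ug) went through oligo-dT selection into a Tecan/Nugen kit. The submitters' processing notes name cutadapt 2.3, Salmon 1.3.0 and the build hg19. Which transcript set, library type and bias options were used is not given in the sources. The columns, per the file headers, hold length, effective length, TPM and an estimated count of reads for every transcript. These deposited estimated counts carry no normalization, and a read shared by several transcripts is divided among them. The deposited TPM values are the authors' reads per effective length, with an equal total in each library.

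Estimated counts were rounded. Library totals were 64364751 to 90805283 reads. Transcripts passing the default filter of edgeR 4.0.16 (78478 of 228715) were scaled with TMM factors of 0.92 to 1.037 and fitted in one quasi-likelihood model with group as its only term. Benjamini-Hochberg adjustment covered all rows, with a threshold of 0.05. Standard errors are the log2 difference divided by the root of the F statistic, and intervals use the t distribution with the degrees of freedom of the fit. A second fit had the 5 SUPT5H rows replaced by their sum. Shares and summed TPM were compared with exact permutation tests over libraries. The fit was tested on simulated data. Alternatives were DESeq2 1.42.0, limma 3.58.1 on log2(TPM + 1) and log2(TPM + 0.1), other scalings and filters, pairs of groups, a replicate block, and leaving libraries out. The 5 members are always named, with the 2 transcripts most correlated with their sum. The members and lists were chosen with earlier results of these data known. The 95% intervals rest on the spread between libraries, while the counting errors given treat reads as independent molecules, which they need not be. The principal component and the promoter motifs were chosen after seeing the data.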

Additional observations from a re-analysis of the deposited data

How the results depend on the processing

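The summed SUPT5H reads stayed short of the threshold in all 57 fits run as alternatives, 19 for each comparison, in which the log2 difference lay above 0 in 55. The exceptions were limma on log2(TPM + 1) and on log2(TPM + 0.1) for TE7 vs TA7, with -0.016 and -0.017. The cause was not tested. Leaving out 1 library gave 0.192 to 0.294 for TE7 vs WT, 0.077 to 0.212 for TA7 vs WT and 0.027 to 0.159 for TE7 vs TA7. Over all alternatives the adjusted p of TE7 vs WT ran from 0.0942 (DESeq2) to 0.357. In the fit with a replicate block the sum differed by 0.227, 0.119 and 0.108 for TE7 vs WT, TA7 vs WT and TE7 vs TA7, with edgeR adjusted p of 0.162, 0.841 and 0.551. Same-numbered libraries deviated together at correlations of -0.049 to 0.236, and differently numbered ones at -0.252 to 0.114. The numbers were not taken as pairs in the main fit, and a batch behind them was not tested.

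Among single transcripts the small differences of ENST00000359191 and ENST00000599117 changed sign. With limma on log2(TPM + 1) and log2(TPM + 0.1), ENST00000359191 was at 0.045 and 0.058 for TA7 vs WT and at -0.015 and -0.013 for TE7 vs TA7. Without WT replicate 1 and TA7 replicate 1 together it was at -0.089 for TE7 vs WT and -0.073 for TE7 vs TA7, and ENST00000599117 was at -0.162 for TE7 vs TA7. Leaving out 1 library gave ENST00000359191 ranges of -0.088 to 0.284, -0.192 to 0.192 and -0.065 to 0.243, and ENST00000599117 ranges of -0.884 to 0.624, -2.691 to 0.2 and -0.311 to 2.543, for TE7 vs WT, TA7 vs WT and TE7 vs TA7.

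Leaving out 1 library kept the TE7 differences in share of ENST00000432763 at 5.2 points or more and of ENST00000598725 at -3.8 points or below. Summed TPM then differed by 5.38 to 16.1, 6.46 to 17.2 and -6.35 to 2.82.

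The number of transcripts called among all tested moved more. The main values were 7378 for TE7 vs WT, 48 for TA7 vs WT and 2411 for TE7 vs TA7. DESeq2 gave 15850, 2206 and 10502. Without a filter TE7 vs WT had 4450 and TE7 vs TA7 1143. With at least 1 CPM in 3 libraries TA7 vs WT had 96 and TE7 vs TA7 4311. With only the 2 groups compared the counts were 4899, 0 and 4673. For the 0 in edgeR, 4523 transcripts had an unadjusted p under 0.05. With a replicate block TA7 vs WT had 0, with 5556 at an unadjusted p under 0.05 in edgeR, and TE7 vs TA7 1097. With limma on log2(TPM + 1) and log2(TPM + 0.1) TA7 vs WT had 119 and 171. Without WT replicate 1 and TA7 replicate 1 together TA7 vs WT had 90 and TE7 vs TA7 5039. Leaving out 1 library gave 3129 to 9902, 5 to 159 and 298 to 4782. The cause was not tested.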
